A study of Homo sapiens with 4 samples.

Results

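The Fc receptor-like genes FCRL1, FCRL2, FCRL3, FCRL4, FCRL5, FCRL6, FCRLA and FCRLB were followed across 4 arrays of human mantle cell lymphoma (MCL) cell lines. These 8 genes, of 18239 with a probe set in the deposited table, were taken by symbol and Entrez identifier and were measured by 42 of 49386 probe sets. The family was selected on differences between the lines and after CC-292 that were already known from these same arrays, so every value below describes the 4 arrays and carries no test. The groups were REC-1 with CC-292, REC-1 control, Z138 with CC-292 and Z138 control, with 1 array each and no replicate. CC-292 is a covalent inhibitor of Bruton tyrosine kinase (BTK), which relays the B-cell receptor signal. The titles give 48 h for 3 of the arrays and no time for the Z138 control array. The dose is 1 uM in the treatment protocol but 1 mM in the titles of the treated arrays. Each line is an established culture and stands for itself and not for MCL in general. The labels name no vehicle for the control cultures and do not say whether the control and the treated culture of a line were grown side by side.

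Fc receptor-like proteins are immunoglobulin-superfamily relatives of the receptors that bind antibody Fc regions. FCRL1 to FCRL6 sit in the cell membrane, mostly of B cells, and carry tyrosine motifs in their tails that recruit kinases such as SYK and LYN or phosphatases such as SHP-1, so that they raise or dampen B-cell receptor signalling. FCRL1 is an activating co-receptor, FCRL2 to FCRL5 carry inhibitory motifs and mark memory, marginal zone and tissue B-cell subsets, and FCRL6 is found mainly on cytotoxic T and NK cells. FCRLA and FCRLB have no membrane anchor and stay inside the cell, where FCRLA binds immunoglobulin in the endoplasmic reticulum of B cells.

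The promoters of the 5 members that carried clear signal are shown first, because the line difference set FCRL1, FCRL2, FCRL3 and FCRL5 apart from FCRLA. Each run gives the 250 bases before a transcription start in RefSeq (build GRCh38.p14), 5′ to 3′ along the gene. Capitals mark the ETS core GGAAGT or its reverse ACTTCC, the letters bound by B-cell factors such as PU.1 and SPIB. This motif was picked after the sequences had been read.
FCRL1 (chr1:157820121-157820370, minus strand): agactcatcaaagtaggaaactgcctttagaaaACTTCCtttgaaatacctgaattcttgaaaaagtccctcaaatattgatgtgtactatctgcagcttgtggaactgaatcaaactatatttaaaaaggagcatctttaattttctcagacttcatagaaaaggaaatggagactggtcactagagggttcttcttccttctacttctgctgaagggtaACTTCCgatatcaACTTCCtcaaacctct
FCRL2 (chr1:157777133-157777382, minus strand): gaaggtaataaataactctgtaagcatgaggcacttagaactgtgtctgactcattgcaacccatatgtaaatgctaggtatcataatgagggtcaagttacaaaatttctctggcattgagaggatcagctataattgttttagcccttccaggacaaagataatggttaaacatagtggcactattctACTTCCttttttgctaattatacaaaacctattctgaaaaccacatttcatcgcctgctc
FCRL3 (chr1:157700770-157701019, minus strand): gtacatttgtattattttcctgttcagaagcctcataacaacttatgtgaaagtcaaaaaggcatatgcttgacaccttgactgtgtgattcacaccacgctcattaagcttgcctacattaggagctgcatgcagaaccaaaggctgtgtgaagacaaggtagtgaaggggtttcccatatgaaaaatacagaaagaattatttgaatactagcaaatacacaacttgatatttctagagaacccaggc
FCRL5 (chr1:157552516-157552765, minus strand): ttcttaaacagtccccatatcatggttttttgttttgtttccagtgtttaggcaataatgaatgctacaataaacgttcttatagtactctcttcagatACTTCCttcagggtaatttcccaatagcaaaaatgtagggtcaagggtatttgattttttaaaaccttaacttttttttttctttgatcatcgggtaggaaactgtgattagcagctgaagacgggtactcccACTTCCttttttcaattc
FCRLA (chr1:161706979-161707228, plus strand): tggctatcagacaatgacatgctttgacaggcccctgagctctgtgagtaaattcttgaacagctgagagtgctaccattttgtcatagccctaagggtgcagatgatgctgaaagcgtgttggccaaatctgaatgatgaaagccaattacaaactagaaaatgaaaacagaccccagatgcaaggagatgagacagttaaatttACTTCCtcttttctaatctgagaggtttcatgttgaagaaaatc

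RefSeq listed 11 such windows for the 8 genes, and all 8 symbols matched. The ETS core stood in 7 of the 11 windows, against 19.5% of 35093 windows of all genes searched on both strands. Since the motif was picked from these sequences, this share describes them and is no test. It lay 10 and 23 bases before the start in FCRL1, with a further copy at 211 bases. The distance was 12 bases in FCRL5, which held another copy at 145 bases, 12 bases in FCRL4, 38 bases in FCRLA and 54 bases in FCRL2. The windows of FCRL6, found mainly on T and NK cells, held it at 167 and 74 bases. The window of FCRL3, whose level differed between the lines much like those of FCRL1 and FCRL2, did not hold these letters, and neither did any of the 3 windows of FCRLB. The octamer ATTTGCAT stood in 1 window, of FCRLB (1.63% of all windows). The joint ETS and IRF motif, GGAA followed by any 2 bases and GAAA, stood in 1 window of FCRL6 (2.41%). The EBF1 palindrome (TCCC, any 2 bases, GGGA) and an NF-kB motif (GGGA, any 2 bases, TTCC) were in none of the 11, against 1.06% and 1.40% of all windows. These matches are letters in a window and show no binding.

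Values are deposited log2 signals, so that a difference of 1 is 2-fold. Each gene is represented by its brightest probe set on average, and its other probe sets are given beside it. A signal of 4.63, the median of all values, served as the brightness minimum. All 8 genes reached it on at least 1 array, as did 10823 of the 18239 genes and 34 of the 42 member probe sets. The standard deviation (SD) over the probe sets of a gene is the only spread at hand. Pooled over all genes with several bright probe sets it was 0.31 for the REC-1 CC-292 difference, 0.25 for that in Z138, 0.46 for the line difference with CC-292 and 0.48 for that of the controls. It holds no error between cultures or arrays, and probe sets of a gene can share sequence. By Affymetrix naming, 14 of the 42 probe sets hold probes that may also match other transcripts.

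The arrays had nearly equal medians (4.63 to 4.64) and nonspecific background probes with medians of 3.06 to 3.12. The highest of these background probes read 6.43 to 7.09, above the brightness minimum. The B-cell genes MS4A1, CD79A, CD79B and PAX5 and the MCL genes CCND1 and SOX11 were above the minimum on all 4 arrays. None of 7 myeloid markers reached it on any array (highest 3.70). Of 7 NK-cell markers, only NCAM1 reached it, at 4.77 on the Z138 CC-292 array. Of 6 T-cell markers, 3 reached it on the REC-1 CC-292 array (highest 4.81), none on the REC-1 control array and only CD3G on those of Z138. CD3G stood at 4.46 and 4.22 on the REC-1 CC-292 and control arrays, against 6.07 and 5.96 on those of Z138. In RNA pooled from many cells, fewer cells with a transcript and less of it per cell cannot be told apart.

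The first comparison set REC-1 beside Z138, once between the CC-292 arrays and once between the controls. FCRL1, FCRL2 and FCRL3 had strong signal in REC-1 and signal below the minimum in Z138, FCRL5 was several-fold higher in REC-1, and FCRLA was strong in both lines. FCRL4, FCRL6 and FCRLB were dim in both.

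FCRL2 showed the widest gap. Its brightest probe set read 12.21 on the REC-1 CC-292 array and 11.95 on the REC-1 control array, against 4.38 on the Z138 CC-292 array and 3.96 on the Z138 control array. Both REC-1 arrays thus lay far above both Z138 arrays, and the 2 arrays of a line differed by less than the distance between lines. The line difference was 7.84 with CC-292 and 7.99 between the controls, rank 3 of 10823 genes in each pair. Because Z138 was below the minimum, the control gap on this probe set is better read as at least 159.8-fold, the REC-1 signal over the minimum. The other probe sets gave smaller control gaps, of 6.2-fold to 141.0-fold. All 11 FCRL2 probe sets were at least 2-fold higher in REC-1, with control differences of 2.63 to 7.99. In Z138 only 1 of the 11 reached the minimum, on the control array at 5.29, and it read 4.52 with CC-292.

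FCRL3, whose product carries both an activating and an inhibitory tail motif, had the same shape. It read 11.02 on the REC-1 CC-292 array and 11.05 on the REC-1 control array, against 4.03 on the Z138 CC-292 array and 3.82 on the Z138 control array. The line difference was 6.99 with CC-292 (rank 8) and 7.23 between the controls (rank 7). On this brightest probe set alone, that is at least 83.9-fold and 85.6-fold over the minimum. Its other 2 probe sets gave control differences of 6.26 and 4.37. No FCRL3 probe set reached the minimum on a Z138 array.

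FCRL1 read 9.90 on the REC-1 CC-292 array and 9.83 on the REC-1 control array, against 3.79 on the Z138 CC-292 array and 3.74 on the Z138 control array. The line difference was 6.11 with CC-292 (rank 23) and 6.09 between the controls (rank 20). On this brightest probe set alone, that is at least 38.6-fold and 36.8-fold over the minimum. All 4 probe sets were 4.05 to 6.39 higher on the REC-1 control array than on that of Z138, and none reached the minimum in Z138. The brightest is of the kind that may match other transcripts. Those not of this kind gave control differences of 5.33 and 4.05. FCRL1 is regarded as a general B-cell surface protein. MS4A1, the gene of the B-cell protein CD20, read 11.82 on the Z138 CC-292 array and 12.03 on the Z138 control array.

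FCRL5, a receptor that binds IgG and is also carried by plasma cells, reached the minimum in both lines. Its brightest probe set read 8.41 on the REC-1 CC-292 array and 8.97 on the REC-1 control array, against 4.81 on the Z138 CC-292 array and 6.01 on the Z138 control array. All 4 values lay above the minimum, with both REC-1 arrays higher. Both Z138 values lay below the highest nonspecific background probe of their array (6.43 with CC-292, 6.84 in the control). REC-1 was 12.1-fold higher with CC-292 and 7.76-fold higher between the controls. All 9 probe sets were at least 2-fold higher in REC-1 in both pairs, with differences of 1.00 to 3.90 with CC-292 (SD 1.06) and 1.41 to 3.33 between the controls (SD 0.60). The lowest of these lay just on the 2-fold line.

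**Figure D1:**
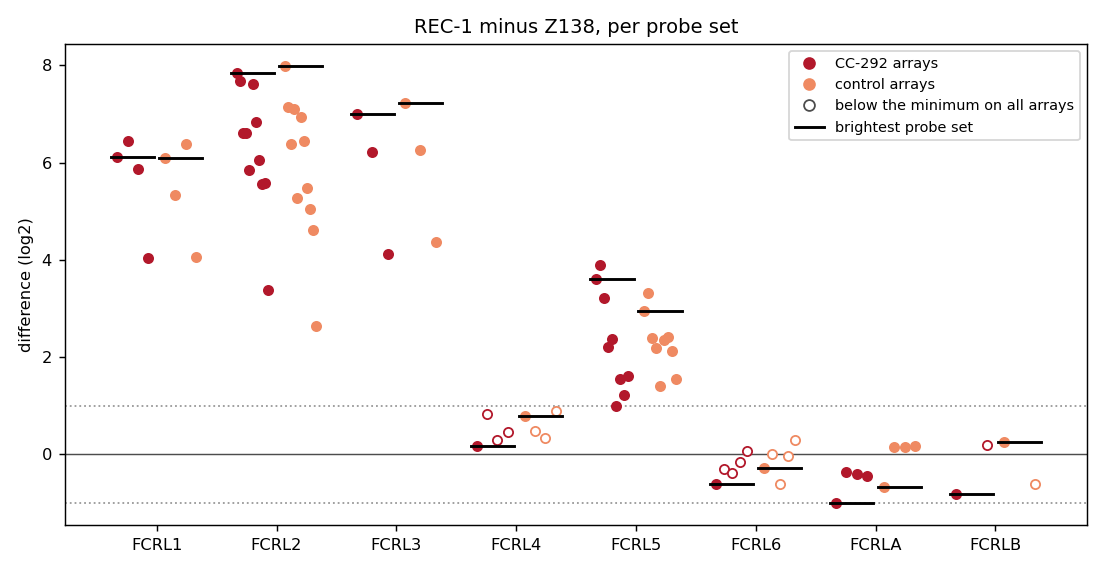
Log2 difference REC-1 minus Z138 for each probe set of the 8 genes, on the CC-292 arrays (dark) and the control arrays (light). Filled points are probe sets that reached the brightness minimum on an array, open points did not, black bars mark the brightest probe set and dotted lines mark 2-fold. All probe sets of FCRL1, FCRL2, FCRL3 and FCRL5 lie at or above the upper dotted line, and those of the other genes lie between about -1 and 1.

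FCRLA was strong in both lines. Its brightest probe set read 9.72 and 10.34 on the REC-1 CC-292 and control arrays, against 10.72 and 11.02 on those of Z138, a line difference just short of 2-fold lower in REC-1 with CC-292 and of -0.68 between the controls. Its other 3 probe sets, all of the kind that may match other transcripts, read 9.52 to 9.61 on the REC-1 control array and 9.35 to 9.46 on the Z138 control array. They differed by 0.15 to 0.17 between the controls, so the sign of the control difference depended on the probe set. With CC-292 all 4 probe sets were lower in REC-1, and these 3 differed by -0.35, -0.40 and -0.45.

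The dim members differed little between lines. FCRL4, an IgA-binding receptor of tissue memory B cells, read 4.85 and 5.59 on the REC-1 CC-292 and control arrays, against 4.69 and 4.80 on those of Z138. Its 3 other probe sets stayed below the minimum on every array. FCRL6 read 4.29 and 4.23 on the REC-1 CC-292 and control arrays, against 4.89 and 4.50 on those of Z138, and reached the minimum only with CC-292 in Z138. FCRLB, the intracellular relative of FCRLA, read 4.63 and 5.57 on the REC-1 CC-292 and control arrays, against 5.45 and 5.30 on those of Z138. At such signals a transcript that is absent and a transcript that is poorly measured look alike.

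**Figure D2:**
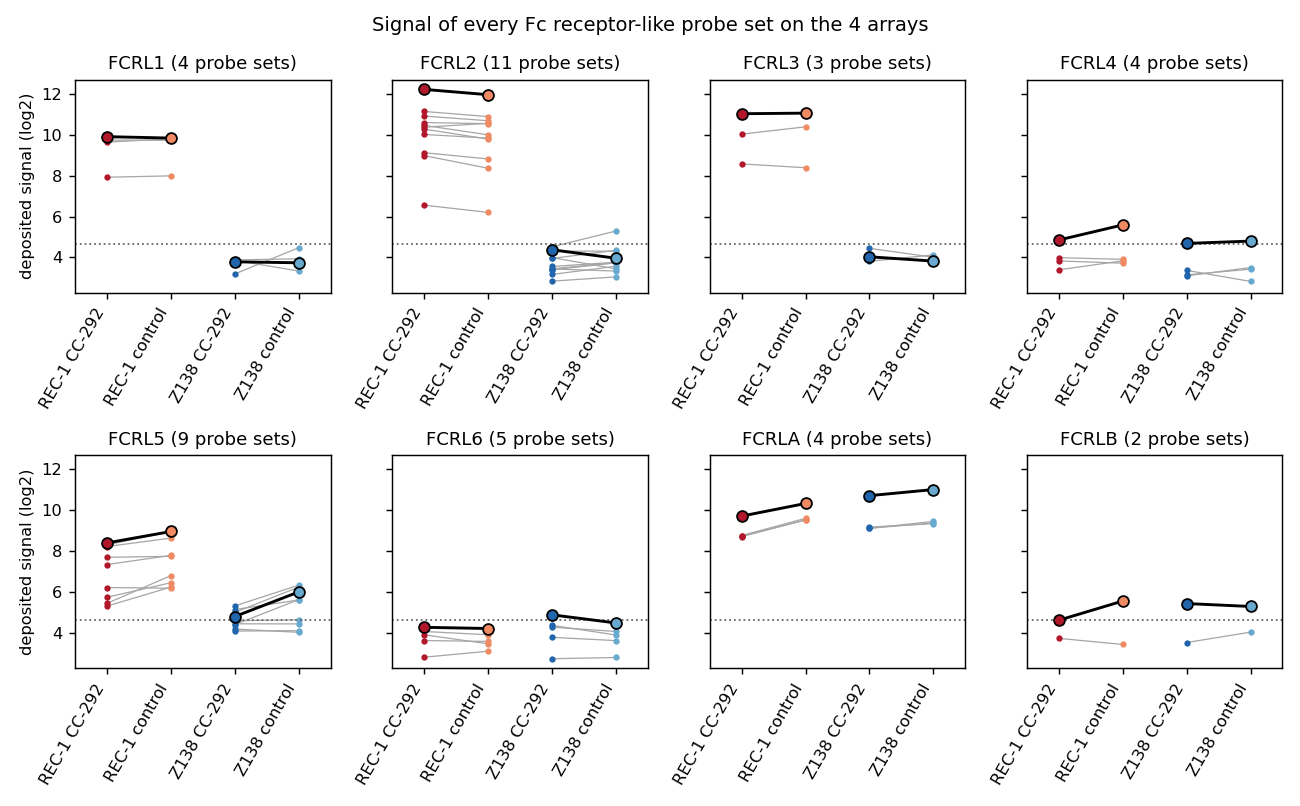
Deposited log2 signal of all 42 probe sets on the 4 arrays, with the REC-1 arrays in red and orange, the Z138 arrays in blue, and lines joining the CC-292 and control array of a line. Large points are the brightest probe set of a gene and the dotted line is the brightness minimum of 4.63. FCRL1, FCRL2 and FCRL3 are high in REC-1 and lie around or below the dotted line in Z138, and FCRLA is high on all 4 arrays.

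Counted as genes, 4 of the 8 members were at least 2-fold higher in REC-1 with CC-292, where 12.0% of the 10823 genes were, and the same 4 between the controls, where 11.9% were. None was at least 2-fold lower, where 13.3% of genes were with CC-292 and 12.4% between the controls. On every probe set and in both pairs, 4 members were at least 2-fold higher, against 3.65% of the 8228 genes with several probe sets. Of the 34 member probe sets that reached the minimum, 27 were at least 2-fold higher in REC-1 with CC-292, against 11.8% of 25739 probe sets, and 27 between the controls, against 11.7%. Since this line difference was known when the family was taken up, these shares describe it and support nothing further. The median over the 8 genes was 1.88 with CC-292 and 1.87 between the controls, against -0.03 and 0.02 over all genes.

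**Figure D3:**
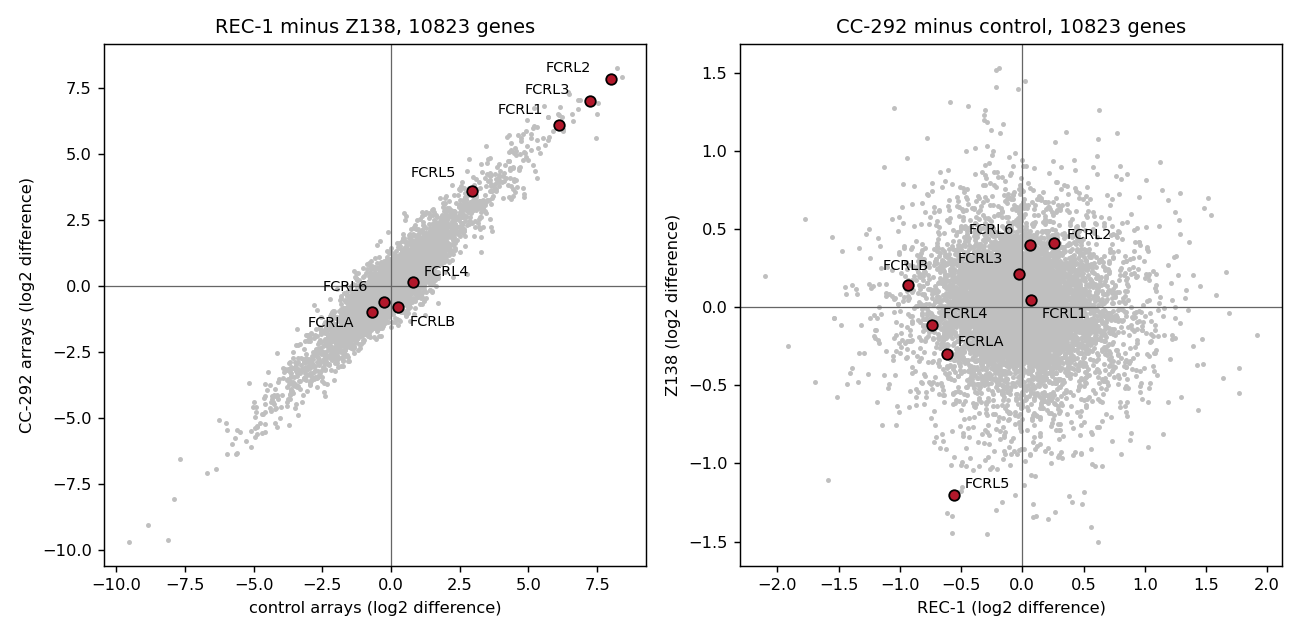
Each grey point is 1 of 10823 genes and red points are the 8 members. On the left, log2 difference REC-1 minus Z138 on the control arrays (x) and the CC-292 arrays (y), with FCRL1, FCRL2 and FCRL3 at the upper end. On the right, log2 difference CC-292 minus control in REC-1 (x) and Z138 (y), where FCRL5 is at -0.56 and -1.20 and FCRLB at -0.94 and 0.14.

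The second comparison asked what differed between the CC-292 and the control array within each line. FCRL5 and FCRLA were lower with CC-292 in both lines, whereas FCRL1, FCRL2 and FCRL3, the members with the widest line difference, differed little in REC-1. No member was at least 2-fold lower in REC-1, where 0.758% of genes were. In Z138 FCRL5 was, among 0.351% of genes. None was at least 2-fold higher in either line, where 0.841% of genes were in REC-1 and 0.213% in Z138. A count of 0 among 8 members is near such shares.

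On its brightest probe set FCRL5 read 8.41 with CC-292 and 8.97 in the control of REC-1, a difference of -0.56, and 4.81 with CC-292 and 6.01 in the control of Z138, a difference of -1.20. The Z138 difference was a 2.30-fold lower signal, rank 18 from the lowest among 10823 genes. Over its 9 probe sets the Z138 difference averaged -0.56 (SD 0.60) with a median of -0.47, so the 2-fold difference rested on the choice of probe set. The probe sets did not move alike in the 2 lines. In Z138, 4 of the 9 differed by -1.01 to -1.24, all of them above the minimum on the control array at 5.64 to 6.34. These signals were still below the highest nonspecific background probe of that array (6.84). Another, which may match other transcripts, read 5.15 with CC-292 and 5.62 in the control. The other 4 read 4.10 to 4.61 with CC-292 and 4.04 to 4.65 in the control and differed by -0.04 to 0.16, at signals where little could be measured.

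In REC-1, 8 of the 9 FCRL5 probe sets were lower with CC-292, with differences of -0.05 to -1.35, and the remaining probe set differed by 0.03. The mean was -0.56 (SD 0.42), larger in size than the pooled spread of 0.31. The lowest, a 2.55-fold lower signal, read 5.46 with CC-292 and 6.81 in the control, and it stood at 4.46 and 4.45 in Z138. The probe sets with the lowest differences in REC-1 were thus not those with the lowest in Z138. The probe table does not say which transcripts they match.

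FCRLA was lower with CC-292 on all 4 probe sets in both lines. All but the brightest may match other transcripts and had nearly the same signal on each array, so they may not be separate measurements. In REC-1 the differences were -0.62 on the brightest probe set and -0.79, -0.82 and -0.84 on the others (SD 0.10), a 1.53-fold lower signal on the brightest. In Z138 they were -0.30 on the brightest and -0.17, -0.26 and -0.34 on the others (SD 0.07). The REC-1 differences exceeded the pooled spread between probe sets (0.31), and those in Z138 were close to it (0.25). Of the genes with several probe sets, 3.80% were lower on all of them in both lines, and FCRLA was the only member to be so. All 4 probe sets gave a lower difference in REC-1 than in Z138. The REC-1 minus the Z138 difference was -0.32 to -0.62 and was not tested.

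FCRL2 was slightly higher with CC-292 in REC-1. It read 12.21 with CC-292 and 11.95 in the control on its brightest probe set, and 10 of the 11 probe sets were above 0, with a range of -0.19 to 0.62 and a mean of 0.27 (SD 0.22). Over all genes 42.1% were above 0, a share that counts each gene once and not probe sets of 1 gene. The FCRL2 differences were small beside its line difference. FCRL1 differed by 0.07 on its brightest probe set (mean -0.04, SD 0.10, over 4) and FCRL3 by -0.03 (mean -0.07, SD 0.27, over 3). In Z138 the brightest probe sets differed by 0.05 for FCRL1, 0.41 for FCRL2 and 0.21 for FCRL3, all between signals below the minimum. For FCRL2, 7 of the 11 probe sets were below 0 there (mean -0.14), and the probe set that reached the minimum in the control differed by -0.77. An FCRL1 probe set at -1.28 read 3.19 with CC-292 and 4.47 in the control, both below the minimum.

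Among the dim members, FCRLB differed by -0.94 in REC-1, a 1.91-fold lower signal that lay on the minimum itself with CC-292, and differed by 0.14 in Z138. Its other probe set was below the minimum on every array and went the opposite way in both lines, at 0.30 and -0.51. FCRL4 differed by -0.74 in REC-1 and -0.11 in Z138 on the probe set that reached the minimum, with its other 3 probe sets between -0.44 and 0.11 in REC-1. FCRL6 differed by 0.06 in REC-1 and 0.40 in Z138. Counted as probe sets, 1 of the 34 that reached the minimum was at least 2-fold lower in REC-1, against 0.808% of 25739. In Z138 5 of the 34 were, against 0.389%, and they were 4 of FCRL5 and the FCRL1 probe set named above, which was below the minimum there. All FCRL1 and FCRL3 probe sets and all but 1 of FCRL2 reached the minimum only in REC-1. Probe sets of 1 gene are also not independent, so this share describes the arrays and supports nothing further. The median over the 8 genes was -0.29 in REC-1 and 0.10 in Z138, against -0.05 and 0.01 over all genes.

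**Figure D4:**
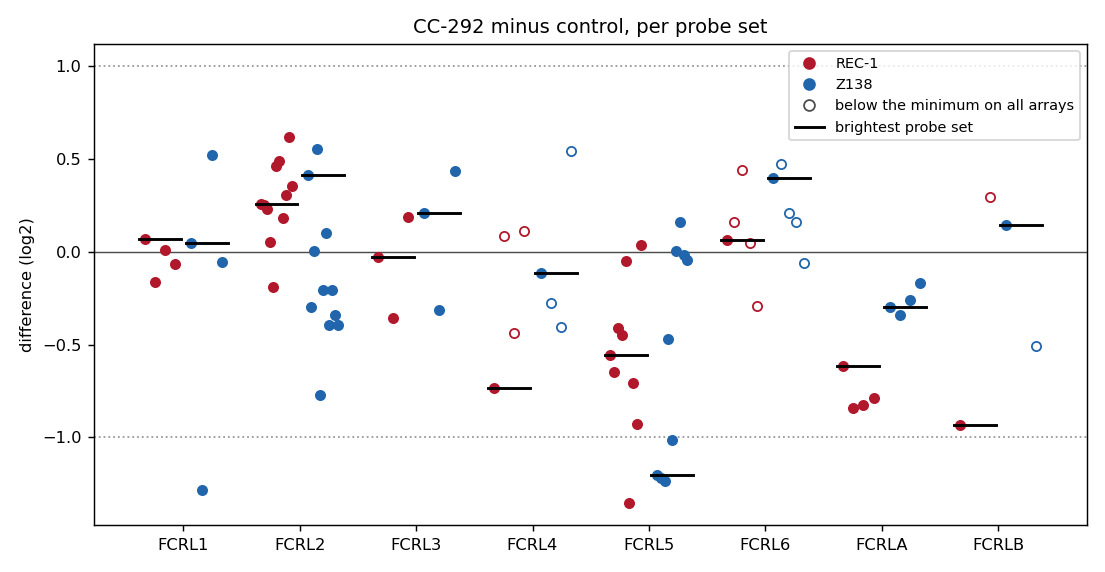
Log2 difference CC-292 minus control for each probe set, in REC-1 (red) and Z138 (blue). Open points are probe sets below the brightness minimum on every array, black bars mark the brightest probe set and dotted lines mark 2-fold. All FCRLA points lie below 0, and 4 FCRL5 points in Z138 lie at -1.01 to -1.24.

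For each member the genes with the most similar profile were found by the Euclidean distance between log2 profiles centred on their own mean, over 4 arrays and 10823 genes. With so few arrays this finds genes with a line difference of like size, and says nothing of shared control. Nearest to FCRL1 was CR2, a complement receptor of B cells (distance 0.23), which read 9.59 and 9.65 on the REC-1 CC-292 and control arrays, against 3.72 and 3.38 on those of Z138. PLEKHG1 and CPED1 followed. FCRL2 lay closest to CHI3L2 (0.43), GTSF1 and BBOX1. FCRL3 lay closest to BBOX1 (0.23), to CD300A, an inhibitory receptor with tyrosine motifs (0.33), and to the transcription factor gene BHLHE41 (0.39). CD300A read 10.86 and 10.48 on the REC-1 arrays with and without CC-292, against 3.81 and 3.59 on those of Z138. FCRL5 lay closest to SMCO4 (0.37), STK39 (0.37) and PRICKLE1 (0.46). These were also lower with CC-292 in Z138, which the choice itself favours, because the distance takes in both Z138 arrays. In Z138 STK39 read 3.77 with CC-292, below the minimum, and 5.22 in the control. PRICKLE1 read 6.28 and 7.54, and SMCO4 was below the minimum on both. The nearest genes to FCRLA were H2BC7, ACAD10 and E2F7. For FCRL4, FCRL6 and FCRLB the nearest were GABRR2, FHOD1 and PPP1R13L, at distances of 0.04 to 0.05. Small distances are easier to reach where a profile spans a small range, as for these members.

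The line difference of the FCRL genes was set beside that of the genes next to them in the RefSeq gene order (assembly GRCh38.p14). FCRL5, FCRL4, FCRL3, FCRL2 and FCRL1 follow each other on chromosome 1 with no other protein-coding gene between them. FCRL4, which lies between FCRL5 and FCRL3, differed by 0.79 between the controls where these neighbours differed by 2.96 and 7.23. Outside the row, ETV3 and ETV3L, genes of ETS-family factors, differed by 0.07 and -0.34 and ARHGEF11 by -0.48. CD5L and KIRREL1 on the other side were below the minimum on every array. FCRLA and FCRLB lie next to each other, beyond FCGR2B, and DUSP12 and ATF6 on their far side differed by 0.24 and -0.59. FCGR3A and FCGR3B were below the minimum on every array.

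Classical receptors for immunoglobulin were given the same look, with 6 of 14 measured genes above the minimum. For this and the following lists, 11.9% of all genes were at least 2-fold higher in REC-1 between the controls and 12.4% at least 2-fold lower. FCGR2B, the inhibitory IgG receptor of B cells, read 9.27 and 9.24 on the REC-1 CC-292 and control arrays, against 7.91 and 8.44 on those of Z138. It differed by 0.03 with CC-292 in REC-1 and by -0.53 in Z138 (SD 0.08 over 4 probe sets). FCMR, the IgM receptor, was 2.07 higher in REC-1 between the controls (SD 0.45 over 5 probe sets) and was the only gene of the list at least 2-fold different there. FCER2, the CD23 gene, had a line difference of -0.91 in both pairs, lower in REC-1, and differed with CC-292 by -0.39 in REC-1 and -0.40 in Z138. The median control difference of the list was 0.63.

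Kinases and phosphatases that bind FCRL tails were mostly higher in REC-1. Of 9 genes above the minimum, 6 were at least 2-fold higher between the controls and 1 was at least 2-fold lower, with a median of 1.49. LYN, the kinase that phosphorylates such tails, read 11.25 and 11.23 on the REC-1 CC-292 and control arrays, against 8.44 and 8.68 on those of Z138 (control difference 2.55, SD 0.14 over 3 probe sets). PTPN6, which encodes the phosphatase SHP-1, was 1.90 higher (SD 0.08 over 3 probe sets), INPP5D, which encodes SHIP-1, 2.05 higher (SD 0.63 over 4), and FYN 3.43 higher on 1 probe set. FGR differed by -1.53 (SD 1.27 over 2 probe sets). With CC-292, 7 of the 9 had a difference below 0 in Z138 (median -0.25), where 48.1% of all genes were below 0. PTPN6 at -0.99 and BLK at -0.76 were the lowest. In REC-1 3 of the 9 were below 0, with a median of 0.10, where 57.8% of all genes were.

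Genes of the B-cell receptor and its co-receptor were present in both lines except CR2. CR2 was the only member of the 8 measured below the minimum in Z138. Among the rest, CD79A was 1.82 higher in REC-1 between the controls (SD 0.17 over 3 probe sets) and CD79B 1.56 higher (SD 0.71 over 3). Among other inhibitory receptors with tyrosine motifs, all 7 above the minimum were higher in REC-1 between the controls, where 51.1% of all genes were. Of these 7, 3 were at least 2-fold higher, namely CD300A, CD22 at 1.95 and CEACAM1. CD300A was below the minimum in Z138. LAIR1 was dim in both controls, at 4.58 in REC-1 and 4.21 in Z138. CD22 differed with CC-292 by 0.10 in REC-1 and by -1.08 in Z138 (SD 0.52 over 2 probe sets), the only gene of this list at least 2-fold different with CC-292. Of the B-cell identity genes, 8 of 14 were at least 2-fold higher in REC-1 between the controls and 1 was lower, BACH2 at -2.26. CD37 stood at 10.14 and 9.66 on the REC-1 CC-292 and control arrays, against 4.49 and 5.43 on those of Z138. Its control difference varied widely between probe sets (SD 1.91 over 4). SPIB, an ETS factor of B cells, was 1.94 higher in REC-1, while PAX5 differed by -0.15. SPI1, the gene of PU.1, differed by 0.41 between the controls. It reached the minimum only on the REC-1 CC-292 array, at 4.95. In Z138 SPIB differed with CC-292 by -0.90.

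**Figure D5:**
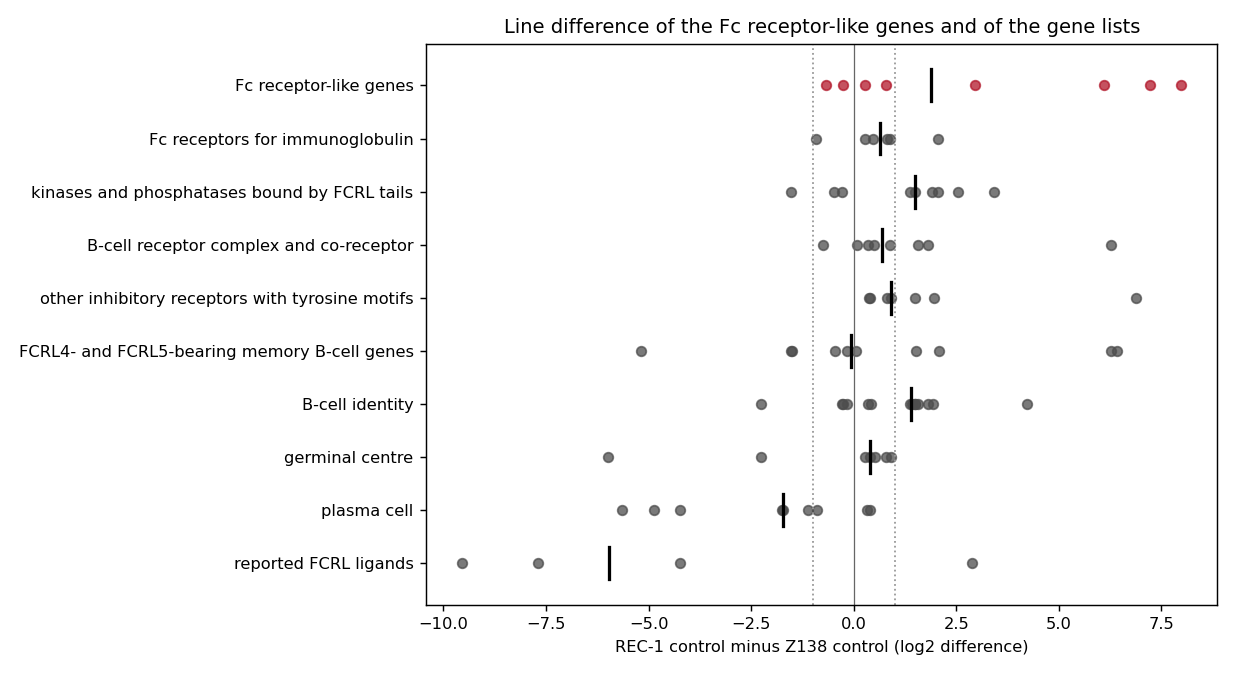
Log2 difference REC-1 control minus Z138 control of the 8 Fc receptor-like genes (red) and of the genes above the brightness minimum in 9 lists (grey). Each point is 1 gene, black bars are medians and dotted lines mark 2-fold. The Fc receptor-like genes spread from -0.68 to 7.99, and the medians of the plasma-cell and ligand lists lie below -1.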

How the data were processed

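Total RNA of 4 cultures was labelled from 150 ng with biotin and hybridised to Affymetrix arrays, per the labels' protocols. The deposited table holds log2 signals per probe set, with 1 array per column, made by the authors with RMA and Affymetrix Expression Console 1.1, per the submitters' processing notes. No source used here gives the settings, and the log2 scale was inferred from a range of 2.18 to 14.26. RMA usually equalises arrays, so a shift of most genes would not show. The number of arrays, not depth, limits the precision.

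Left out were 1327 probe sets that carry more than 1 symbol and those that carry no symbol. Genes, brightness minimum and 2-fold counts were as given above. Named genes were all 8 members, up to 4 per list by line difference and 2 per line by CC-292 difference, 3 nearest profiles and 3 neighbours per side, of which a part is printed. Genes with no probe set of a single symbol are not analysed here. Members and lists were chosen with earlier results of these data known. The procedure was tested on simulated data. Python 3.11.15, pandas 2.3.3, numpy 2.4.6 and matplotlib 3.10.9 were used, with limma 3.58.1 in R 4.3.3 for cyclic loess. The 10 alternatives covered the choice of probe set, the scaling, the brightness minimum, the fold threshold and a floor at the background median.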

Additional observations from a re-analysis of the deposited data

Results flagged for a closer look

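On their brightest probe sets FCRL3 and FCRLB differed in opposite directions after CC-292 in the lines, and with 1 array per group this was not tested. The REC-1 difference minus the Z138 difference was -0.24 for FCRL3, with -0.03 in REC-1 and 0.21 in Z138, where both Z138 signals were below the brightness minimum. The other 2 FCRL3 probe sets had the same sign in both lines, with -0.36 in REC-1 and -0.31 in Z138 on the brighter and 0.19 and 0.43 on the dimmer. The REC-1 value of FCRL3 was at or just above 0 after quantile normalization and cyclic loess. For FCRLB it was -1.08, with -0.94 in REC-1 and 0.14 in Z138. Its other probe set gave 0.80, with signals below the minimum on all 4 arrays.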

How the results depend on the processing

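Of 120 recomputed counts and medians of the family, 105 kept their value (a count within 1.5 times, a median within the pooled spread between probe sets). No difference of at least 2-fold changed sign, but the family median in Z138 did. The count of genes higher in REC-1 was 4 in both pairs under the alternatives run, except for 5 between the controls at a 1.5-fold threshold. At that threshold 2402 of 10823 genes were higher between the controls. FCRL5 was no longer 2-fold lower in Z138 with the mean of its probe sets (count 0) or when its median-difference probe set stood for it (count 0), and at a 3-fold threshold, which its unchanged value does not reach, the count was 0. With the mean and the median-difference probe set only 6 members reached the minimum. Over these the median in Z138 was -0.19 and -0.25 (0.10 over all 8), between lines with CC-292 3.96 and 4.04, and in the controls 3.88 and 3.84. At the 70th percentile of brightness, where 5 members were left, the medians were 6.11 for the CC-292 arrays and 6.09 for the controls. Between the CC-292 arrays, FCRLA counted as 2-fold lower in REC-1 than in Z138 when arrays were centred (count 1, at -1.01). At 1.5-fold, 3 genes were lower with CC-292 than in the control of REC-1, where 512 of 10823 genes were. They were FCRLA and the dim FCRL4 and FCRLB. Between lines, 3 were lower in REC-1 with CC-292, where 2590 genes were, and 1 between the control arrays, where 2348 were. Of 220 values of single genes, 188 kept their value and 203 their sign. Low signal limits FCRL4, FCRL6 and FCRLB, and FCRL1 to FCRL3 in Z138. No paired analysis was possible because each group is 1 array.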

Other observations

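REC-1 and Z138 also differed in genes of the late B-cell stages and of the reported ligands of these receptors. Of 9 plasma-cell genes above the minimum, 6 were at least 2-fold lower in REC-1 than in Z138 between the controls and none was higher by that much (median -1.71), where 12.4% of all genes were lower and 11.9% higher. TNFRSF17, the BCMA gene, read 3.87 and 4.69 on the REC-1 CC-292 and control arrays, against 10.25 and 10.33 on those of Z138. SDC1, the CD138 gene of plasma cells, read 3.54 and 3.61 on the REC-1 arrays with and without CC-292, against 8.89 and 8.48 on those of Z138. Its control difference had an SD of 1.62 over 3 probe sets. PRDM1 differed by -1.76 and IRF4 by -1.71. The germinal-centre list had a median of 0.40, and its extreme was GCSAM at -5.99 between the controls (SD 2.26 over 2 probe sets).

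HLA-DRA, the MHC class II gene whose product binds FCRL6, read 3.44 and 3.72 on the REC-1 CC-292 and control arrays, against 13.14 and 13.27 on those of Z138. Its 3 probe sets differed widely in this gap (-9.54 on the brightest, SD 4.42). IGHA1, the heavy chain of the IgA bound by FCRL4, was 2.88 higher in REC-1 between the controls (SD 0.10 over 3 probe sets), and JCHAIN, the joining chain of polymeric antibody, differed by -4.24 (SD 0.19 over 2).

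Genes linked to FCRL4- and FCRL5-bearing memory B cells went both ways, with 4 of 10 higher in REC-1 between the controls by at least 2-fold and 3 lower by as much (median -0.05). The list was not sorted by whether a gene is high or low in such cells, so these counts do not mark the cells. TBX21, ITGAX, CXCR3, SOX5, RUNX2 and CD27 of the list were below the minimum on every array. The homing receptor gene CXCR5 read 10.59 and 10.60 on the REC-1 CC-292 and control arrays, against 3.26 and 4.17 on those of Z138 (SD of the control difference 2.55 over 2 probe sets). CCR7 went the other way, with 5.59 and 4.63 on the REC-1 arrays with and without CC-292, against 9.26 and 9.80 on those of Z138.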
